A study of Mus musculus with 9 samples.

Results

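Subunit genes of the proteasome were followed in mouse brain after injection of a baculoviral vector. The set was chosen by name, with earlier results of these data known, and held 10 genes. The 5 inducible members were Psmb8, Psmb9, Psmb10, Psme1 and Psme2, and the 5 constitutive members were Psmb5, Psmb6, Psmb7, Psme3 and Psma1. Every probe set whose single gene symbol in the platform annotation is one of these names was taken, which gave 15 probe sets of 9 genes, out of 18193 genes named in that way on the array. The only probe set that names Psme2 carries Psme2b as well, so no value is given for Psme2. A filter against dim probe sets left 13 of the 15, without 1 of Psma1 and 1 of Psme3. All 9 genes, 4 inducible and 5 constitutive, kept at least 1 probe set, among 13331 genes tested.

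The proteasome is a barrel-shaped protease that cuts ubiquitin-tagged proteins into short peptides. In the standard barrel the cutting is done by the subunits encoded by Psmb5, Psmb6 and Psmb7. Interferons induce Psmb8, Psmb9 and Psmb10, which replace them in newly assembled barrels, and the resulting immunoproteasome yields more peptides that fit MHC class I molecules. Psme1 and Psme2 encode the PA28 alpha and beta subunits of a cap that interferon gamma induces, Psme3 encodes the nuclear PA28 gamma cap, and Psma1 encodes a structural subunit of the outer ring. In brain, inducible subunits are known chiefly from glial cells and from immune cells that enter after infection.

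The animals were adult male BALB/c mice with an intact immune system, 3 per group, and each gave 1 array of total RNA from the tissue next to the injection sites in the striatum. The vector was BV-HSVtk, built on an insect baculovirus. For the HS group its only purification was high-speed centrifugation (HS), and for the MC+HS group membrane chromatography (MC) came before that step. Each side of the striatum received 10 µL with 100000000 particles of vector, and the samples date from 2 days later. Mock mice received virus-free Sf9 insect cell medium that had gone through the MC+HS purification, so in HS against mock the vector and the purification differed together and cannot be told apart. The series asked how expression differed after the vector purified in each way.

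Median signals lay between 147 and 264 intensity units per array, and the values below are log2(signal + 16) after the array medians were set equal. HS replicate 1 stood apart: its median correlation with the other arrays was 0.757, against 0.956 to 0.979 for the rest, and its log2 values had an SD of 1.54, against 2.17 to 2.39. It stayed in the fit of all 9 arrays, and the members' differences from mock are given with and without it. A gene is said to be called where limma's Benjamini-Hochberg adjusted p over all probe sets was under 0.05. All markers measured of neurons (5 of 5), striatal medium spiny neurons (4 of 4), astrocytes (5 of 5), oligodendrocytes (4 of 4) and endothelium (5 of 5) passed the filter.

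The 4 measured inducible members were higher on 5 of the 6 vector arrays than on any mock array, while on HS replicate 1 only Psmb9 was. Apart from that array the constitutive members lay close to mock. In the fit of all 9 arrays no member's main probe set was called in any comparison. With HS replicate 1 left out, all 4 inducible members were called higher in HS against mock and in MC+HS against mock, and 0 of 5 constitutive members were called in either. That array was singled out by its values in these data, and without it HS has 2 arrays. The same 4 inducible genes were called in MC+HS against mock when only the 6 arrays of that comparison were fitted. That fit used no HS array, although the filter before it had used all 9 arrays. In HS against mock fitted on its own 6 arrays, 0 of 4 were called.

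**Figure D1:**
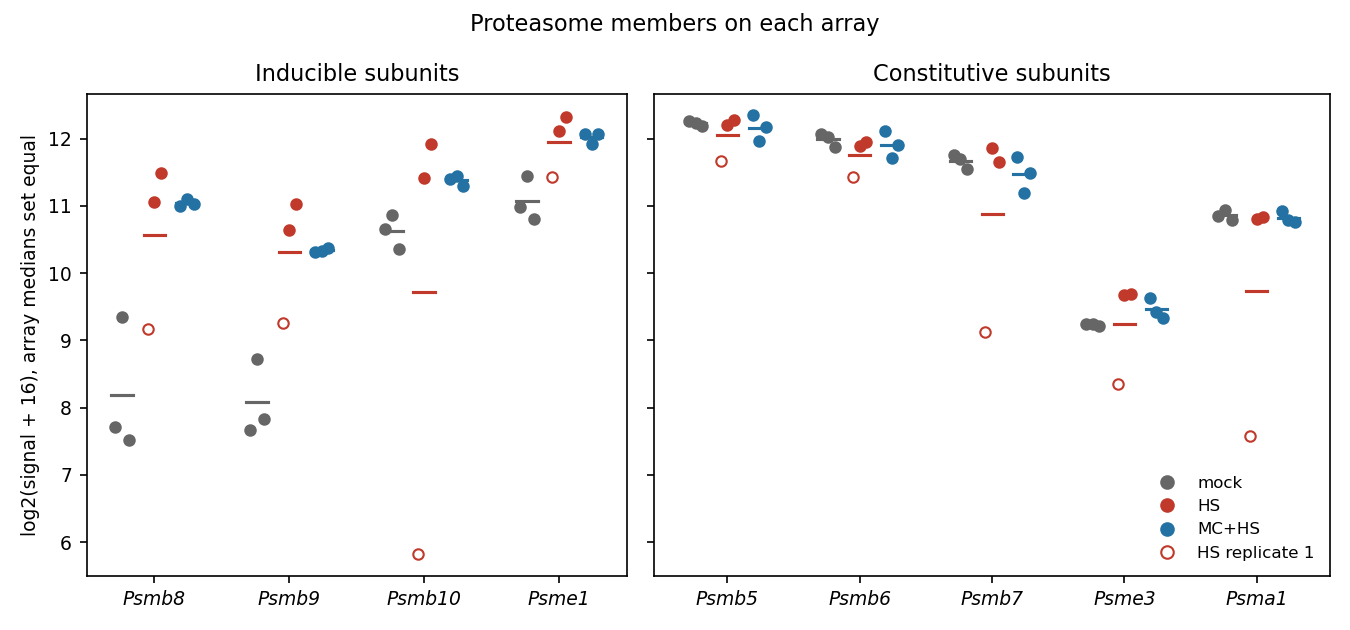
Level of each measured member on each array as log2(signal + 16) with array medians set equal, for mock (grey), HS (red) and MC+HS (blue); lines are group means and the open point is HS replicate 1. Psmb8 and Psmb9 lie between 10.32 and 11.50 on the 5 other vector arrays and between 7.52 and 9.35 on the mock arrays, whereas Psmb5 lies between 11.67 and 12.35 on all 9.

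Psmb8 encodes the inducible chymotrypsin-like subunit, which takes the place of the Psmb5 product. On its brighter probe set the mock arrays read 7.72, 9.35 and 7.52, the HS arrays 9.17, 11.06 and 11.50, and the MC+HS arrays 11.00, 11.11 and 11.02. The MC+HS values lay close together and above every mock value. HS replicate 1 fell below mock replicate 2, so that HS and mock overlapped. In the fit of all 9 arrays Psmb8 was 5.21-fold above mock in HS (log2 difference 2.38 ± 0.64, SE; limma adjusted p = 0.256) and 7.22-fold in MC+HS (2.85 ± 0.64; adjusted p = 0.14). With that array left out it rose 8.49-fold in HS (3.09 ± 0.42; limma adjusted p = 0.00142) and 7.22-fold in MC+HS (2.85 ± 0.37; adjusted p = 0.00132). The dimmer Psmb8 probe set read 4.70 to 5.19 on the mock arrays and 6.87 to 7.59 on the 6 vector arrays, HS replicate 1 included. It was not above the filter on any mock array and entered the fit only through the vector arrays, so its calls in HS (2.47 ± 0.26, limma adjusted p = 0.00413) and MC+HS (2.28 ± 0.26, adjusted p = 0.00782) are given as values and lend no support.

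Psmb8 lies on chromosome 17 between Tap1 and Tap2, the genes of the peptide transporter that feeds MHC class I. RefSeq's promoter table (GRCm38.p6, the C57BL/6J reference) gives it a window from 250 bases before to 50 after the start, in which TTCNNNGAA, the gamma-activated site, matched from -97 to -89. The stretch is shown because it is the only match to this site among the windows of the members, and the capitals mark the match, at chr17:34198068-34198136 on the plus strand.
Psmb8: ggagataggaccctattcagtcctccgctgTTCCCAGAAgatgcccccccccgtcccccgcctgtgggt
A match on either strand occurs in 8.3% of the 32851 windows in the table, and it describes the letters, not the binding of a factor.

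Psmb9 encodes the inducible counterpart of the caspase-like subunit Psmb6. The mock arrays read 7.68, 8.73 and 7.83, the HS arrays 9.26, 10.64 and 11.02, and the MC+HS arrays 10.32, 10.33 and 10.38. All 6 vector arrays, HS replicate 1 among them, lay above all 3 mock arrays. In the fit of all 9 arrays Psmb9 was 4.70-fold above mock in HS (log2 difference 2.23 ± 0.45; limma adjusted p = 0.0766) and 4.80-fold in MC+HS (2.26 ± 0.45; adjusted p = 0.0824). When HS replicate 1 was omitted it rose by 2.75 ± 0.25 in HS (limma adjusted p = 0.000143) and by 2.26 ± 0.23 in MC+HS (adjusted p = 0.000282). These were the smallest adjusted p values among the members' main probe sets in that fit.

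Psmb9 and Tap1 start head to head on chromosome 17, with 225 bases between the starts, and their windows share 275 bases. The interval is printed because both genes rose and it lies upstream of both, at chr17:34187331-34187555, read on the plus strand with Psmb9 to the left and Tap1 to the right.
Psmb9 and Tap1: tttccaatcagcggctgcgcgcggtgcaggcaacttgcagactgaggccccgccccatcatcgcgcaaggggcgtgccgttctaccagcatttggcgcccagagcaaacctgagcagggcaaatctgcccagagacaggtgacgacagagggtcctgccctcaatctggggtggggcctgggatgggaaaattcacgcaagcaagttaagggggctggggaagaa
None of the 3 motifs searched (the core of the interferon-stimulated response element, TTCNNNGAA and the core of the antioxidant response element, TGACNNNGC) has a match in either window, which says only that these letters are not there. On the arrays Tap1 read 7.02, 8.08 and 7.33 in mock, 9.41, 10.10 and 10.58 in HS, and 10.38, 10.61 and 10.40 in MC+HS. Like Psmb9, it was higher on every vector array than on any mock array, with mock replicate 2 the highest mock array and HS replicate 1 the lowest vector array.

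Psmb10 encodes the inducible trypsin-like subunit, the counterpart of Psmb7. It read 10.66, 10.87 and 10.36 in mock and 11.40, 11.44 and 11.30 in MC+HS, and 11.42 and 11.92 in HS replicates 2 and 3. On HS replicate 1 it read 5.83 and was not above the filter. The fit of all 9 arrays therefore put HS below mock with a wide error (log2 difference -0.91 ± 1.32; limma adjusted p = 0.741), and MC+HS above it with the same error (0.75 ± 1.32; adjusted p = 1). Without that array Psmb10 rose 2.06-fold in HS (1.04 ± 0.17; limma adjusted p = 0.00446) and 1.68-fold in MC+HS (0.75 ± 0.15; adjusted p = 0.0186). It was the smallest rise among the inducible members in both comparisons.

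Psme1 encodes PA28 alpha. It read 10.99, 11.44 and 10.80 in mock, 11.43, 12.11 and 12.33 in HS, and 12.07, 11.92 and 12.08 in MC+HS. The MC+HS arrays lay above all mock arrays, while HS replicate 1 lay just below mock replicate 2. Over all 9 arrays the log2 difference was 0.88 ± 0.30 in HS (limma adjusted p = 0.52) and 0.94 ± 0.30 in MC+HS (adjusted p = 0.51). Psme1 rose, once HS replicate 1 was left out, 2.21-fold in HS (1.14 ± 0.16; limma adjusted p = 0.00191) and 1.92-fold in MC+HS (0.94 ± 0.14; adjusted p = 0.00365). Psme1 and Psme2 lie close together on chromosome 14, with Emc9 between them. The Psme1 window holds a match to the core of the interferon-stimulated response element, on the reverse strand, from base 10 to base 19 after the start. It is the only match to this core in the members' windows, and 3.44% of all windows hold one. The 30 bases shown are chr14:55578493-55578522 on the plus strand, with the match in capitals.
Psme1: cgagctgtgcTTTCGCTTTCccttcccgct

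The constitutive catalytic subunits differed little between the groups. Psmb5, the standard chymotrypsin-like subunit, read 12.26, 12.23 and 12.20 in mock, 11.67, 12.21 and 12.28 in HS, and 12.35, 11.97 and 12.17 in MC+HS. The groups overlapped, and only HS replicate 1 lay clearly lower. Its log2 difference from mock was -0.18 ± 0.25 in HS (limma adjusted p = 0.732) and -0.07 ± 0.25 in MC+HS (adjusted p = 1). Over the 8 other arrays the difference in HS was 0.01, with a 95% confidence interval of -0.22 to 0.25, and in MC+HS -0.07, with an interval of -0.28 to 0.14.

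Psmb6, the standard caspase-like subunit, read 12.07, 12.02 and 11.88 in mock, 11.43, 11.89 and 11.95 in HS, and 12.12, 11.72 and 11.90 in MC+HS. Its groups overlapped as well. With all 9 arrays the log2 difference from mock was -0.24 ± 0.24 in HS (limma adjusted p = 0.664) and -0.08 ± 0.24 in MC+HS (adjusted p = 1). Over the same 8 arrays the log2 difference from mock was -0.07 in HS (95% interval -0.33 to 0.19; limma adjusted p = 0.84) and -0.08 in MC+HS (-0.31 to 0.15; adjusted p = 0.808). Psmb7, the standard trypsin-like subunit, read 11.76, 11.70 and 11.56 in mock, 9.12, 11.86 and 11.66 in HS, and 11.73, 11.20 and 11.49 in MC+HS. HS replicate 1 was far below the other 8 arrays for this gene. The fit of all 9 arrays gave a difference of -0.79 ± 0.63 in HS (limma adjusted p = 0.635) and -0.20 ± 0.63 in MC+HS (adjusted p = 1). Without it the difference was 0.09 in HS (-0.23 to 0.41; limma adjusted p = 0.844) and -0.20 in MC+HS (-0.48 to 0.09; adjusted p = 0.555).

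Psma1, the structural subunit, read 10.85, 10.94 and 10.79 in mock, 7.58, 10.80 and 10.84 in HS, and 10.92, 10.79 and 10.75 in MC+HS. Apart from HS replicate 1, the groups overlapped and all arrays lay between 10.75 and 10.94. With it the log2 difference was -1.12 ± 0.75 in HS (limma adjusted p = 0.635) and -0.04 ± 0.75 in MC+HS (adjusted p = 1). Without that array the difference was -0.04 in HS and -0.04 in MC+HS, with 95% intervals of -0.25 to 0.18 and -0.23 to 0.16. The 2 dimmer Psma1 probe sets that passed the filter were not called either, with log2 differences between -0.29 and -0.02 over all 9 arrays. The brighter of these 2 read lower on every MC+HS array (8.06 to 8.33) than on any mock array (8.36 to 8.48).

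Psme3, the PA28 gamma gene, was the constitutive member that came nearest to the threshold. Its main probe set read 9.24, 9.25 and 9.21 in mock, 8.35, 9.67 and 9.69 in HS, and 9.63, 9.42 and 9.34 in MC+HS. All 5 vector arrays other than HS replicate 1 lay above the mock arrays, which themselves spanned only 9.21 to 9.25. The log2 difference over all 9 arrays was 0.00 ± 0.34 in HS (limma adjusted p = 0.997) and 0.23 ± 0.34 in MC+HS (adjusted p = 1). Without HS replicate 1 it was 0.45 ± 0.11 in HS (limma adjusted p = 0.0629) and 0.23 ± 0.10 in MC+HS (adjusted p = 0.335), so neither was called. The dimmer Psme3 probe set read 8.27 to 8.65 on those 8 arrays, where each vector group overlapped mock, with a difference of 0.17 ± 0.14 in HS (adjusted p = 0.658).

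The windows of Psmb5 and Psmb6 each hold a match to TGACNNNGC, found in 12.4% of all windows. They are shown because they are the only matches to this core among the members, and they belong to the constitutive genes. In Psmb5 the match runs from -47 to -39, within chr14:54617996-54618072 on the minus strand, and in Psmb6 from -9 to -1, within chr11:70525288-70525356 on the plus strand. Each run ends at the base before the start, and the capitals mark the match.
Psmb5: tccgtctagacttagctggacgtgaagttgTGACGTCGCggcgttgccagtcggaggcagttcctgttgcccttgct
Psmb6: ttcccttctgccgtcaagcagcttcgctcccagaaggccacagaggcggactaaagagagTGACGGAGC
The windows of Psmb10, Psme2, Psme3 and Psma1 have no match to any of the 3 motifs, and Psmb7 has no window in the table.

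**Figure D2:**
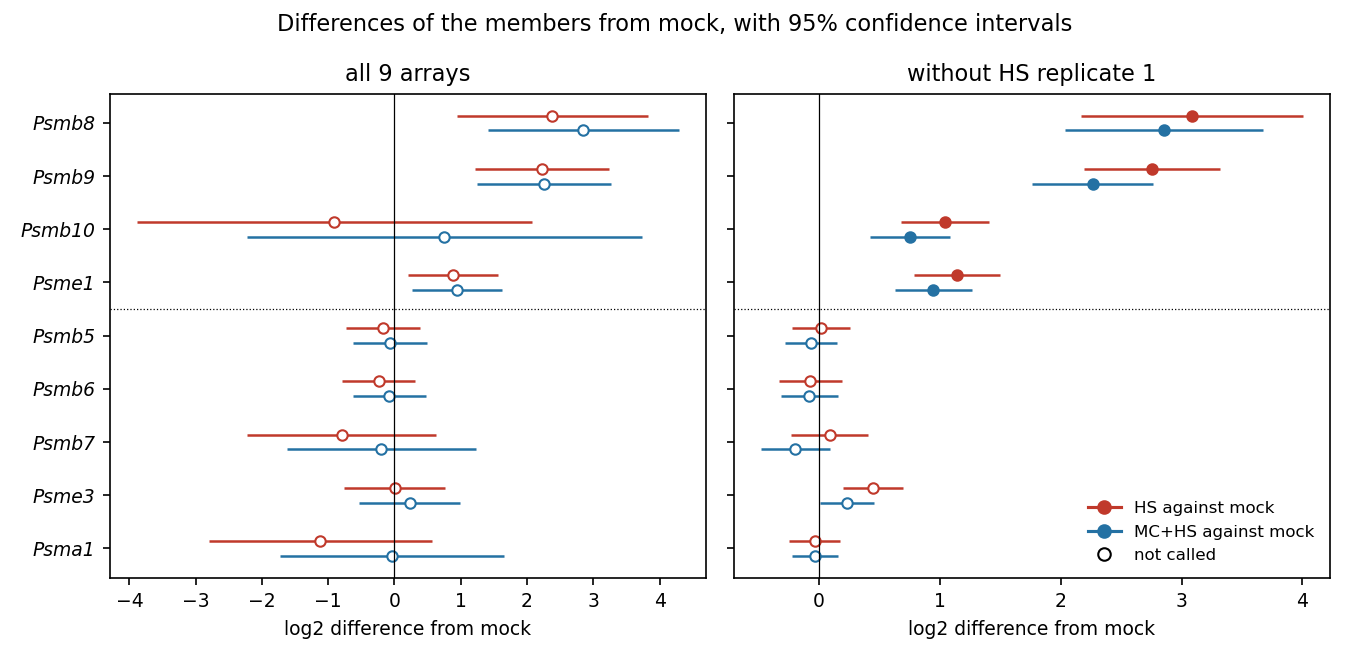
Log2 difference from mock of each measured member with its 95% confidence interval from limma, for HS (red) and MC+HS (blue), over all 9 arrays (left) and without HS replicate 1 (right); filled points were called, and the panels have different horizontal scales. On the left 0 members were called, and on the right the 4 inducible members were called in both comparisons, from 0.75 to 3.09.

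Counted over the members and set beside all genes, the calls read as follows. In HS against mock over all 9 arrays, 0 of 4 inducible and 0 of 5 constitutive members were called by limma, where 0.893% of all genes were called higher and 0.0375% lower. At an unadjusted p under 0.05 the inducible count was 3 and the constitutive count 0. In MC+HS against mock the counts were again 0 and 0, where 0.690% of genes were called higher and 0.0225% lower, and 3 inducible and 0 constitutive members had an unadjusted p under 0.05. The 3 genes were Psmb8, Psmb9 and Psme1 in both comparisons, which share the mock arrays.

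Without HS replicate 1, 4 of 4 inducible members were called higher in HS against mock, where 3.82% of genes were called higher and 0.393% lower. In MC+HS against mock 4 of 4 were called higher, where 3.25% of genes were called higher and 0.431% lower. Of the constitutive members 0 of 5 were called in either direction, and 1, Psme3, had an unadjusted p under 0.05 in each comparison. The median log2 difference of the 4 inducible members was 1.95 in HS and 1.60 in MC+HS, beside 0.05 and 0.01 over all genes. The medians of the 5 constitutive members were 0.01 and -0.07, near those of all genes. Over all 9 arrays the inducible medians were 1.56 and 1.60, and the constitutive medians -0.24 and -0.07, beside -0.23 and 0.01 over all genes.

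The ranges of single arrays gave a similar division. In MC+HS against mock all 3 MC+HS arrays lay above all 3 mock arrays for 4 of 4 inducible members and 1 of 5 constitutive members (Psme3), where 11.0% of all genes did so. In HS against mock with all arrays this held for 1 of 4 inducible members (Psmb9) and 0 of 5 constitutive members, where 4.82% of genes did so. With HS replicate 1 left out it held for 4 of 4 and 1 of 5 (Psme3), where 26.0% of genes did so, and the 1 constitutive gene is thus near that share.

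Each measured inducible gene was also set against a constitutive gene within the array, as a log2 ratio of their transcript signals. For Psmb8, Psmb9 and Psmb10 this was the subunit they replace. Psme1 was set against Psme3, which encodes a separate cap and is not replaced by it. Such a ratio does not measure the composition of assembled proteasomes. The ratio of 2 probe sets has no meaning as a level, so its change from the mock mean is given. For Psmb8 over Psmb5 the change was 1.54, 2.88 and 3.26 on the HS arrays and 2.69, 3.18 and 2.89 on the MC+HS arrays, while the mock arrays stood at -0.51, 1.15 and -0.64. For Psmb9 over Psmb6 it was 1.75, 2.66 and 2.99 in HS, 2.12, 2.53 and 2.39 in MC+HS, and -0.48, 0.62 and -0.14 in mock. In both pairs every vector array lay above every mock array. On HS replicate 1 the separation of Psmb8 over Psmb5 came with a low Psmb5 (11.67, against 12.20 to 12.26 in mock), since Psmb8 itself (9.17) was below mock replicate 2 (9.35). For Psme1 over Psme3 it was 1.23, 0.60 and 0.80 in HS, 0.59, 0.66 and 0.89 in MC+HS, and -0.09, 0.35 and -0.26 in mock, again without overlap. The 1.23 on HS replicate 1 came with a low Psme3 (8.35, against 9.21 to 9.25 in mock), while Psme1 there was just below mock replicate 2. For Psmb10 over Psmb7 it was -2.25, 0.60 and 1.31 in HS, 0.71, 1.29 and 0.85 in MC+HS, and -0.06, 0.21 and -0.15 in mock, so that HS replicate 1 alone fell below the mock arrays.

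The difference of the 6 vector arrays from the 3 mock arrays was tested by an exact two-sided permutation test over arrays. Its p was the smaller tail doubled, and the smallest possible p values given below are those under this rule. Adjustment was by Benjamini-Hochberg over the 4 pairs that could be formed. It was 2.74 for Psmb8 over Psmb5, 2.41 for Psmb9 over Psmb6 and 0.79 for Psme1 over Psme3, each with an exact p = 0.0238, the smallest that 6 against 3 arrays can give, and an adjusted p = 0.0317. It was 0.42 for Psmb10 over Psmb7 (exact p = 0.667, adjusted p = 0.667). Without HS replicate 1 the 4 changes were 2.98, 2.54, 0.71 and 0.95 in that order, each with an exact p = 0.0357, the smallest that 5 against 3 arrays can give, and an adjusted p = 0.0357. Within MC+HS alone the changes were 2.92, 2.34, 0.72 and 0.95 and within HS alone 2.56, 2.47, 0.87 and -0.11, but 3 against 3 arrays cannot give an exact p below 0.1. In Psmb8 over Psmb5 the changes in both groups exceeded the spread of the mock arrays (SD 0.999, n = 3).

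**Figure D3:**
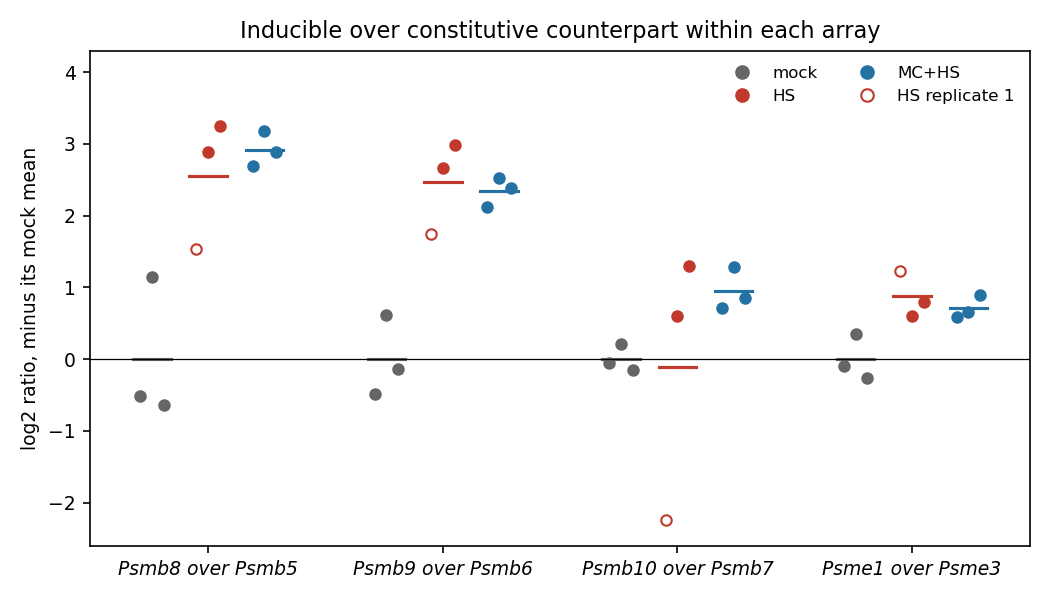
Log2 ratio of each measured inducible gene to the constitutive gene set against it within each array, minus the mean of the mock arrays. Mock is grey, HS red and MC+HS blue, lines are group means and the open point is HS replicate 1. In 3 pairs all 6 vector arrays lie above the 3 mock arrays, and in Psmb10 over Psmb7 all but HS replicate 1 at -2.25 do.

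Mock replicate 2 was the highest mock array for each of the 4 inducible members. The median change of these members from their mock means was 0.50 on that array, against -0.24 and -0.27 on the other mock arrays, and 0.66 to 2.12 on the vector arrays. The constitutive median on mock replicate 2 was 0.03, so that array was not raised in all subunits. Irf7, an interferon-induced transcription factor, read 10.18 on it and 8.60 and 8.86 on the others, and B2m, the light chain of MHC class I, 12.39 against 11.53 and 11.24. The label does not set this mouse apart from the other mock mice. An alternative that left out both HS replicate 1 and mock replicate 2 was likewise chosen after the data were seen. Because mock replicate 2 was the mock array highest for these members, leaving it out raises their differences from mock by construction. In that alternative 4 of 4 inducible members were called in each comparison with mock and the change of Psmb8 over Psmb5 was 3.56. These are given as values and lend no support.

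The MC+HS and HS arrays were then compared directly, the comparison that bears on the purification itself. Over all 9 arrays 0 of 4 inducible and 0 of 5 constitutive members were called by limma, and 0 of each had an unadjusted p under 0.05, where 0% of all genes were called. The counts were the same without HS replicate 1, where 0.00756% of genes were called. The sign of the inducible differences turned with that array. In the fit of all 9 arrays the log2 difference of MC+HS from HS was 0.47 for Psmb8 (95% interval -0.97 to 1.91), 0.03 for Psmb9 (-0.98 to 1.04), 1.66 for Psmb10 (-1.32 to 4.64) and 0.07 for Psme1 (-0.61 to 0.74), so each estimate was above 0. With HS replicate 1 left out each estimate was below 0. It was -0.23 for Psmb8 (95% interval -1.15 to 0.68), -0.49 for Psmb9 (-1.05 to 0.07), -0.29 for Psmb10 (-0.66 to 0.08) and -0.20 for Psme1 (-0.55 to 0.16). Every interval of both fits includes 0, so a difference between the purifications was not detectable with these arrays and is not shown to be absent. For the constitutive members the differences ran from 0.11 to 1.08 over all 9 arrays and, without HS replicate 1, from -0.29 (Psmb7, interval -0.60 to 0.03) to 0.00 (Psma1, -0.21 to 0.22), with limma adjusted p between 0.698 and 0.998 in the latter fit.

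The rest of the proteasome was measured by lists of the remaining subunits. Of the 10 other core subunits, which form the rings of the barrel, 0 were called in either direction in HS or MC+HS against mock, with or without HS replicate 1. Without that array their log2 differences ran from -0.10 to 0.31 in HS, with a median of 0.07, and from -0.20 to 0.09 in MC+HS, with a median of -0.04. Psma2, of the outer ring, had the smallest p in HS at 0.31 (limma adjusted p = 0.279), followed by Psma3 at 0.15. In MC+HS the smallest p values belonged to Psmb2, of the inner ring, at -0.20 and to Psma4 at -0.11. On HS replicate 1 several of these genes were far below the other arrays: Psmb3 read 7.80, against 12.26 to 12.61 elsewhere, and Psma2 8.60, against 11.88 to 12.37. The list's median in HS over all 9 arrays was accordingly -0.64, with 0 of 10 called and 0 with an unadjusted p under 0.05. Psma5 and Psma7 had the smallest p there, at -0.90 and -0.81.

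Of the 19S regulatory particle, the lid and base that bind and unfold ubiquitin-tagged proteins, 17 of 18 listed genes were measured and 0 were called in any of these fits. The median without HS replicate 1 was 0.10 in HS and -0.03 in MC+HS. The smallest p values in HS were those of the ATPase genes Psmc6 (0.24, limma adjusted p = 0.249) and Psmc4 (0.22), and in MC+HS those of Psmd1 (-0.17) and Psmd7 (-0.15). Over all 9 arrays the HS median was -0.18, and Psmd4, an ubiquitin receptor, stood lowest at -1.42 with an SE of 0.98. Of the other regulators and assembly chaperones 10 of 11 were measured and 0 were called. Their medians without HS replicate 1 were 0.05 in HS and -0.02 in MC+HS. Psmd5 and Psmd10, chaperones of the base, had the smallest p in HS at 0.28 (adjusted p = 0.254) and 0.27, and Psmd9, another chaperone, and Psme4, the PA200 cap, in MC+HS at -0.16 and 0.18. Psmf1, an inhibitor of the core, and Psmg2, a chaperone of its assembly, had the smallest p over all 9 arrays in HS, at -0.79 and -0.31. The 2 tissue-specific core subunits, Psma8 of testis and Psmb11 of thymus, did not pass the filter.

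**Figure D4:**
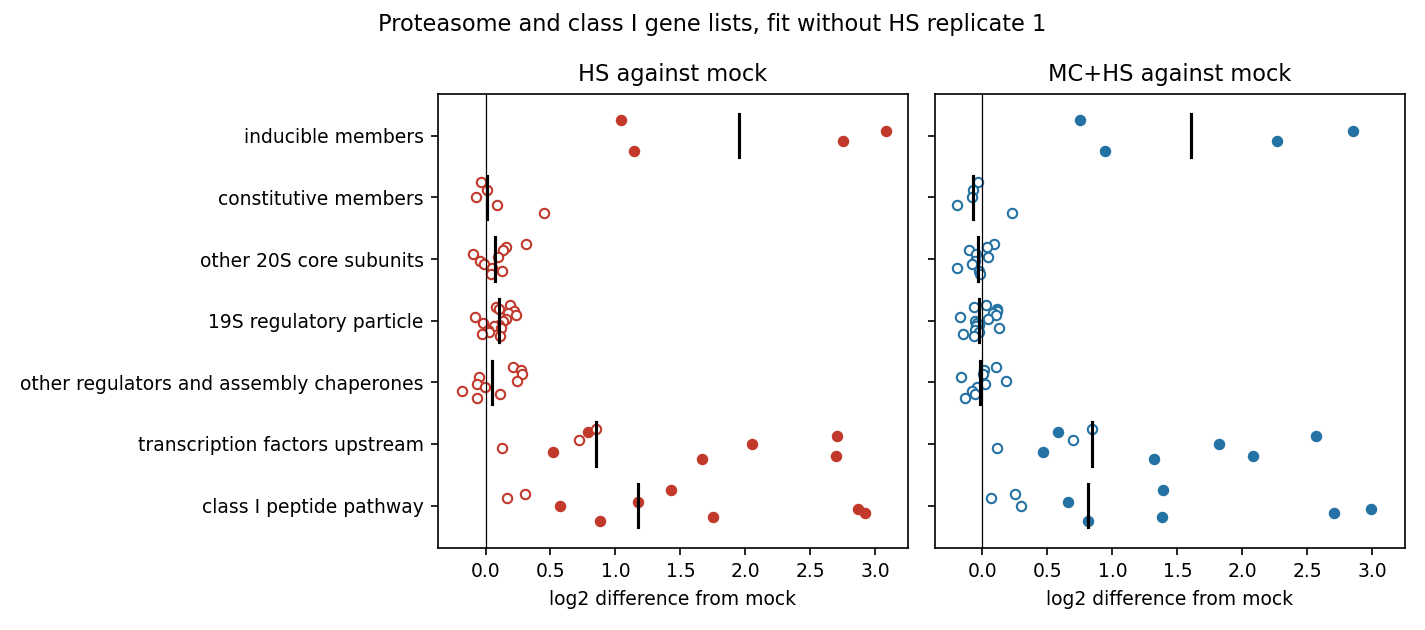
Log2 difference from mock of each measured gene of the proteasome and MHC class I lists in the limma fit without HS replicate 1, for HS (left) and MC+HS (right); filled points were called and black bars are list medians. The inducible members run from 0.75 to 3.09, and the constitutive and other proteasome genes lie between -0.20 and 0.45.

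Transcription factors that act on these genes were measured for 9 of 10 listed. Over all 9 arrays 2 were called higher and 0 lower in each comparison with mock. Irf7 rose by 2.64 ± 0.39 in HS (limma adjusted p = 0.0185) and 2.56 ± 0.39 in MC+HS (adjusted p = 0.0281), and Irf9, the DNA-binding part of the complex that type I interferons activate, by 1.90 ± 0.32 (adjusted p = 0.0352) and 1.82 ± 0.32 (adjusted p = 0.0494). Irf7 read between 11.71 and 12.09 on all 6 vector arrays, HS replicate 1 included. Without HS replicate 1, 6 of 9 were called higher in each comparison. Nlrc5, the transactivator of MHC class I and of Psmb9, then rose by 2.70 ± 0.26 in HS (adjusted p = 0.000200) and 2.08 ± 0.24 in MC+HS (adjusted p = 0.000612). Stat2 rose by 1.67 and 1.32, and Irf2 by 0.79 and 0.58. Nfe2l2, which drives proteasome genes under oxidative stress, rose by 0.52 (adjusted p = 0.0441) and 0.46 (adjusted p = 0.0453). Irf1, Irf8 and Nfe2l1, which restores constitutive subunits when the proteasome is inhibited, were not called. Irf1 nevertheless read 9.06, 9.51 and 9.04 in mock and 9.53 to 10.3 on the 6 vector arrays, each above every mock array. Irf8 read 7.78 to 8.39 in mock and 8.14 to 8.88 on the vector arrays, with overlap. Nfe2l1 differed by 0.13 and 0.11. The list's median was 0.85 in HS and 0.84 in MC+HS in that fit.

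The MHC class I peptide pathway, which uses the peptides the proteasome makes, was measured for 9 of 9 genes. Over all 9 arrays Tap2 (2.88 ± 0.31, limma adjusted p = 0.00437), Tap1 (2.55 ± 0.35, adjusted p = 0.0124), the trimming peptidase gene Erap1 (1.12 ± 0.15, adjusted p = 0.0117) and Tapbpl (0.90 ± 0.15, adjusted p = 0.0356) were called higher in HS. In MC+HS Tap1 (2.99 ± 0.35, adjusted p = 0.00919) and Tap2 (2.70 ± 0.31, adjusted p = 0.00782) were. With HS replicate 1 omitted, 7 of 9 were called in HS and 6 of 9 in MC+HS, and 0 were lower. Those 6 were Tap1, Tap2, Tapbp (1.75 in HS and 1.38 in MC+HS), Tapbpl, B2m (1.43 and 1.39) and Erap1 (1.17 and 0.65). The endoplasmic reticulum chaperone genes Calr and Canx were not called. The 2 transporter genes that flank Psmb8 thus passed the test in the fit of all 9 arrays, where Psmb8's main probe set did not.

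The genes whose levels followed Psmb8 most closely over the 9 arrays were Xaf1 (Pearson r = 0.998), Tgm2 (0.995), Ccl12 (0.994), Ifit3 (0.994) and Plac8 (0.994). Over the 8 arrays without HS replicate 1 they were Gm9706, Phf11d, Ifi35, Anxa2 and Lgals3bp, each with r of at least 0.9985. For Psmb5 they were Gng3, Cox6b1, Atp5h, Gabarapl2 and Mrps21 over 9 arrays (r between 0.987 and 0.994) and Atp6v1f, Nedd8, Trappc2l, Med31 and Gng3 over 8 (r between 0.976 and 0.986). None of the 5 nearest genes of Psmb8 recurred when that array was left out, and 1 of Psmb5's, Gng3, did. These correlations are descriptions over arrays that share the group differences. Over 9 arrays they also share the low values of HS replicate 1, for Psmb5 and for Psmb8. There Psmb8 read 9.17, against 11.00 to 11.50 on the other vector arrays.

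Some immune cell markers rose on arrays on which the inducible members rose, and their part in the result was not tested. In bulk tissue fewer or more cells of a type and less or more RNA per cell cannot be told apart. Of 5 pan-leukocyte markers, 0 were called over all 9 arrays in either comparison. Without HS replicate 1, 3 were called higher in HS (Ptprc 2.02, Lcp1 1.23 and Cd53 0.78) and 2 in MC+HS (Ptprc 1.78 and Lcp1 0.83). Laptm5 (0.49 in HS and 0.31 in MC+HS) and Coro1a (0.11 and 0.01) were not called in either. The summed pan-leukocyte signal was 4443 to 6072 on the mock arrays and 5699 to 6614 on the MC+HS arrays, so MC+HS and mock overlapped. It was 7028 to 7707 on HS replicates 2 and 3 and 3145 on HS replicate 1. Of 5 monocyte and macrophage markers measured, 2 (Chil3 and Ccr1) were called higher in each comparison over all 9 arrays. Both were dim in mock there, with means of 5.27 and 6.40. Such probe sets can enter the fit only through the vector arrays. The calls of these 2 genes are therefore given as values in either fit and lend no support. In the fit without HS replicate 1, 3 of the 5 markers were called in each (Chil3 3.50 and 2.97, Plac8 3.21 and 2.84, Ccr1 1.54 and 1.41). Ccr2 (1.04 in HS and 0.90 in MC+HS) and Fn1 (0.32 and 0.20) were not called. Plac8 was thus the only called marker of this list not set aside as dim in mock. The summed signal of the monocyte and macrophage markers was 1605 to 2931 in mock and 4549 to 5210 in MC+HS. It was 5928 to 6194 on HS replicates 2 and 3 and 1800 on HS replicate 1.

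Of the other immune lists, some defining markers were dim and fewer genes rose. Of the T cell markers Cd3g and Cd3d did not pass the filter and 0 of the 3 measured were called. The 5 on the array, Cd3g and Cd3d included, had a summed signal of 586.5 to 698.8 in mock, 519.4 to 555.7 in HS and 489.8 to 558.5 in MC+HS. Of the B cell markers Cd79a and Cd79b did not pass, and of the NK cell markers Ncr1 did not, while Nkg7 alone of 3 was called. In HS and MC+HS, Klrk1 differed from mock by 0.90 and 0.30 and Prf1 by -0.23 and -0.21. S100a8 and S100a9, of 4 neutrophil markers measured, were called, but Mpo and Camp did not pass. The other measured ones, Ltf and Ngp, differed from mock by -0.30 and -0.29 in HS and by -0.14 and -0.05 in MC+HS. S100a8, S100a9 and Nkg7 were dim in mock (means 5.72, 6.32 and 5.70), so their calls are given as values and lend no support. Of 4 dendritic cell markers measured 0 were called. Of 5 microglial markers 3, P2ry12, Gpr34 and Siglech, were called lower in each comparison. Cx3cr1 (-0.34 in HS and -0.25 in MC+HS) was not called, nor was Tmem119, which went the other way (0.35 and 0.22). The summed microglial signal was 3732 to 4428 in mock, 3102 to 3291 on HS replicates 2 and 3, 2262 on HS replicate 1 and 2597 to 3369 in MC+HS. Of 5 astrocyte markers 3 were called higher in HS and 2 in MC+HS. Of 5 endothelial markers 1, Cldn5, was called higher in HS (1.12 ± 0.12; limma adjusted p = 0.000346) and in MC+HS (0.96 ± 0.11; adjusted p = 0.000536). The summed endothelial signal was 4384 to 5156 in mock, 6789 to 7678 on HS replicates 2 and 3, 3152 on HS replicate 1 and 6016 to 6783 in MC+HS. These counts are from the fit without HS replicate 1. In the fit of all 9 arrays 0 astrocyte, endothelial, NK, T cell, B cell and dendritic cell markers were called, while 2 neutrophil markers were called higher in HS and 1 in MC+HS, and 1 microglial marker was called lower in HS and 2 in MC+HS.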

How the data were processed

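The deposited values were linear intensity values, 1 for each probe set on each array. Per the submitters' processing notes, GCOS version 1.4.0.036 was used, while the summarising, the scaling and a genome build for the array are not given in the sources used here. Members and gene lists were chosen with earlier results of these data known. Signals were turned into log2(signal + 16), so folds understate the change of dim genes, and array medians were set equal. Of 45101 probe sets, 64 were controls and were dropped, and 28257 exceeded their array's own 40th percentile on 3 arrays or more and were tested. A single symbol was annotated for 34958, more than 1 for 932 and no symbol for 9211. The probe set with the highest mean stood for a gene. limma 3.58.1 (R 4.3.3, statmod 1.5.0; lmFit and eBayes with an intensity trend) was fitted to all 9 arrays with the group as the only term. P values were two-sided and adjusted by Benjamini-Hochberg over all probe sets, and ± is the standard error. The number of arrays limits the precision: the median standard error of a log2 difference was 0.28, or 0.12 to 0.14 without HS replicate 1. Pair ratios were tested by exact permutation with the smaller tail doubled, adjusted over 4 pairs, not the 5 planned, since Psme2 had no value. From each further list the called genes up to 6 with the smallest p, or the 2 smallest where fewer were called, were named. Scripts were tested on simulated data.

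Alternatives were other pseudocounts, filters and scalings, no intensity trend, a robust prior, array weights, a replicate block, only the arrays compared, other rules for several probe sets, and leaving out each array. After group means were removed, correlations of same-numbered arrays ran from -0.17 to 0.29. Differently numbered arrays were not compared, so these values do not settle whether the replicate numbers pair the mice. RefSeq promoter windows (GRCm38.p6) were found for 9 of 10 members and motifs were searched on both strands.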

Additional observations from a re-analysis of the deposited data

How the results depend on the processing

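The number of inducible members called, 0 of 4 in the fit of all 9 arrays, changed under several settings. In HS against mock it was 3 with quantile normalization, 4 with array quality weights, 1 with the mean of all probe sets and 4 with HS replicate 1 and mock replicate 2 left out, and from 0 to 4 with a single array left out. In MC+HS against mock the corresponding counts were 2, 4, 1, 4 and 0 to 4, and 4 with only the 6 arrays compared. Among single arrays, only leaving out HS replicate 1 gave a count above 0. The count of constitutive members was 1 in HS against mock and 2 in MC+HS against HS with array weights, whose estimation stopped before converging. Psmb10 in HS against mock changed sign to 0.71 with weights (limma adjusted p = 0.00155), and to 1.16 with both arrays left out (0.00159), and lay between -2.004 and 1.04 with a single array left out. In MC+HS against HS, Psmb7 and Psme3 turned to -0.48 and -0.26 with weights. The median inducible minus constitutive difference in HS against mock was 1.79, moved to 2.18 with both arrays left out, and ranged from 1.61 to 2.03 with a single one. With a single array left out, the pair changes ranged from 2.42 to 3.32 for Psmb8 over Psmb5, 2.17 to 2.72 for Psmb9 over Psmb6, 0.67 to 0.97 for Psme1 over Psme3 and 0.24 to 0.95 for Psmb10 over Psmb7. Without a mock array 6 against 2 arrays cannot reach an adjusted p under 0.05 (0.0952) when the smaller tail is doubled. That holds also with both arrays left out, where the changes were 3.56, 2.85, 0.88 and 1.06. With the replicate number as a block, 0 inducible and 0 constitutive members were called, Psmb8 had an adjusted p of 0.245 and 0.135 and Psmb9 of 0.0831 and 0.0879, and 148, 95 and 0 probe sets were called, against 219, 164 and 0 without it. Other settings gave up to 7776, 2146 and 6536 (array weights) and down to 15 (only the 6 arrays compared) and 10 (1 array left out). Causes of these changes were not tested. The results with both arrays left out lend no support, since mock replicate 2 was the mock array highest for the inducible members. Under the remaining settings no count of members called changed and each pair change kept its direction. The Psme2 pair was not run, since it could not be formed.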
